A study of Mus musculus and Homo sapiens with 34 samples.

Results

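The MAP kinase phosphatases of the DUSP family were measured in mouse and human lung adenocarcinoma cultures treated with the MEK inhibitor trametinib or with the inhibitor MRTX1133, or with loss or gain of the transcription factor HNF4α. The 10 members are Dusp1, Dusp2, Dusp4, Dusp5, Dusp6, Dusp7, Dusp8, Dusp9, Dusp10 and Dusp16 (the same symbols in capitals in human), chosen by gene symbol. They are 10 of the 21401 genes listed in at least 1 of the mouse count tables and of the 27030 listed in at least 1 of the human tables, and all 10 are listed in all 7 tables.

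MAP kinases are switched on by phosphorylation of a threonine and a tyrosine in their activation loop, and dual-specificity phosphatases of this family remove both phosphates. Dusp1, Dusp2, Dusp4 and Dusp5 encode nuclear enzymes induced by growth factors and stress, of which DUSP5 acts on ERK. Dusp6, Dusp7 and Dusp9 encode cytoplasmic enzymes with a preference for ERK. Dusp8, Dusp10 and Dusp16 encode enzymes with a preference for the stress kinases JNK and p38. Several of these genes, Dusp6 first among them, are transcribed in response to ERK itself, so that the phosphatase feeds back on the kinase that induces it. In tumour cells, transcripts such as Dusp4, Dusp5 and Dusp6 are used as a readout of signalling through RAF, MEK and ERK.

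RNA sequencing covered 34 libraries in 17 groups of 2, with 22 libraries from mouse and 12 from human. The mouse 3154 organoids carry, among their alleles, p53frt, Rosa-FSF-CreERT2 and Hnf4aflox. They were taken 2 weeks after ethanol or after 4-hydroxytamoxifen (4OHT, given at 2 mM for 2 days per the labels), which activates Cre and removes Hnf4a. The FSF cassette is opened by Flp recombinase, and CreERT2 is made from the Rosa locus. In a second experiment the same organoids, after ethanol or 4OHT, were kept for 48 hours with vehicle or with MRTX1133 at 3 nM. The time since 4OHT is not given. The 1027B organoids and the 3311 cell line carry, among their alleles, p53frt, Rosa-FSF-CreERT2, Foxa1flox and Foxa2flox, and no step that deletes Foxa1 or Foxa2 is named for them. Groups of 1027B had vehicle, trametinib at 10 nM or MRTX1133 at 20 nM, and those of 3311 had vehicle or trametinib at 50 nM, each for 48 hours. The human lung adenocarcinoma lines, H358 and H1651, were given trametinib at 20 nM, or vehicle, for the same 48 hours. H1651 with an inducible HNF4α construct was grown with 1 µg/mL doxycycline or without it for 7 days. Trametinib blocks MEK, the kinase that activates ERK, and the target of MRTX1133 is not described here. The mouse organoids, with or without a drug, grew in medium holding 50% L-WRN supernatant, which supplies Wnt3a, R-spondin and noggin. Each mouse culture is 1 line, and the labels do not say whether the 2 libraries of a group came from separate cultures, so every p-value measures only the spread between these libraries.

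Libraries held 19692517 to 45284286 counts, and in every group the 2 libraries differed by more than counting noise (chi-square per degree of freedom 5.4 to 79.5). Hnf4a, the check of the deletion, stood at 315 and 427 CPM (counts relative to a library size scaled by the trimmed mean of M values, TMM) 2 weeks after ethanol and at 53.5 and 68.0 after 4OHT. All tables held the 6 epithelial markers, at 4073 to 11416 CPM summed over them, while leukocyte markers summed to at most 44.6 CPM and endothelial markers to at most 21. In H1651 the epithelial sum was 4506 to 7005 CPM, most of it from KRT8 and KRT18, while EPCAM stood at 0.993 to 3.81 and KRT19 at 6.41 to 8.70 CPM, and fibroblast markers summed to as much as 547 CPM in the doxycycline table. Of the lung markers in the human tables, NKX2-1 stood at 118 to 176 CPM in H358 and 24.3 to 64.6 in H1651, and SFTPB had no count in any of the 4 H358 libraries and at most 1.03 CPM in H1651. In the mouse cultures endothelial markers reached at most 5.93 CPM and fibroblast markers at most 15.8, and some of these low sums differed between groups without overlap, which was not followed further. These are bulk cultures, in which fewer cells of a type and less RNA per cell cannot be told apart. With 2 libraries against 2 the smallest two-sided p of an exact permutation test is 0.333, so the tests below are edgeR quasi-likelihood tests fitted over all genes, and a gene is called when its Benjamini-Hochberg adjusted p is under 0.05. Levels are in CPM of single libraries, replicate 1 before replicate 2, and where a pair is set against another the vehicle or untreated pair comes first. Changes are log2 fold changes from the fit, with 2 libraries in each group.

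The promoters of 8 members are in the RefSeq table used here (build GRCm38.p6, 250 bases before to 50 bases after the start), and those of Dusp4 and Dusp9 are named only. The 4 printed below are shown because Dusp5 and Dusp6 were called lower in the same 4 of 7 inhibitor comparisons described below, and Dusp1 and Dusp8 in none. Dusp1 was, however, lower with both drugs in 1027B when replicate numbers were taken as pairs. Dusp16 was also called lower in none of the 7, and its promoter, not printed, holds none of the matches described next. Capitals mark matches, on either strand, to the core of the ETS site CGGAAG, the AP-1 site TGANTCA, the cyclic AMP response element TGACGTCA, or the CArG box bound by serum response factor. No match overlaps another. Coordinates are chr19:53528895-53529194 on the plus strand for Dusp5, chr10:99262981-99263280 on the plus strand for Dusp6, chr17:26508423-26508722 on the minus strand for Dusp1 and chr7:142095235-142095534 on the minus strand for Dusp8.
Dusp5: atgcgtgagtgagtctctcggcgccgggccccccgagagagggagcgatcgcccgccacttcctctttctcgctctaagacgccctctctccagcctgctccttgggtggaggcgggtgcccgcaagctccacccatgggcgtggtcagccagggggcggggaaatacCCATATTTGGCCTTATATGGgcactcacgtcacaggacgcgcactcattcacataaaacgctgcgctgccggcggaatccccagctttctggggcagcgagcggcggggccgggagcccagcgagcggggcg
Dusp6: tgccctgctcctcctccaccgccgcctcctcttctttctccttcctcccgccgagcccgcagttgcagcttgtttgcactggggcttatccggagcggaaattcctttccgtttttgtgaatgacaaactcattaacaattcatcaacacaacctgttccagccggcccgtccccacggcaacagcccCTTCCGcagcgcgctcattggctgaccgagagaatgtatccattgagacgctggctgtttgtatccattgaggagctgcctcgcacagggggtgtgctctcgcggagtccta
Dusp1: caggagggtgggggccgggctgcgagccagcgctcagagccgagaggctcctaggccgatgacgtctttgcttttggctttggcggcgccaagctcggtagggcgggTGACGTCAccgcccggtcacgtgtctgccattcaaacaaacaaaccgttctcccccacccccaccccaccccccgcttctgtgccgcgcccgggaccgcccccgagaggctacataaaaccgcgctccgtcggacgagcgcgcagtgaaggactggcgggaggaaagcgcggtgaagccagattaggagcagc
Dusp8: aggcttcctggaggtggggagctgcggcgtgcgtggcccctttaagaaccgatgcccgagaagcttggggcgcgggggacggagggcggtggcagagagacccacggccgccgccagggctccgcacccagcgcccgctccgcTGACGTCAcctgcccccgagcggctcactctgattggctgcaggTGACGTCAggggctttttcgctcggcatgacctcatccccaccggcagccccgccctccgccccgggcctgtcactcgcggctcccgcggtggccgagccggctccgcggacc
The Dusp5 promoter holds 2 CArG boxes, whose first bases lie at -82 and -72 from the start, and 1.63% of all 32851 promoters of the same length hold one. The Dusp6 promoter holds 1 ETS core, read on the minus strand with its first base at -62, a sequence found in 16.9% of all promoters. A full cyclic AMP element lies at -143 in Dusp1 and at -107 and -63 in Dusp8, against 1.79% of all promoters. No member promoter in the table holds the AP-1 site, which 7.81% of all promoters hold. A match is a description of letters in this window and was not tied to any expression value. The GC content of the 8 promoters runs from 57.3% to 78.7%, and the median over all promoters is 52.7%.

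Without inhibitor, Dusp6 stood first or second among the members in each mouse culture when levels were taken per kilobase of exon. In 3311 vehicle libraries Dusp6 stood at 225 ± 27.8 CPM per kilobase (SD, n = 2), above Dusp4 at 105 ± 6.21 and Dusp5 at 24.9 ± 8.90, with no overlap between these neighbours. In 1027B the order was Dusp6 at 86.6 ± 11.4, Dusp4 at 65.5 ± 13.4 and Dusp1 at 53.0 ± 9.76 CPM per kilobase, and Dusp4 and Dusp1 overlapped. In the 48-hour 3154 ethanol libraries Dusp6 (55.5 ± 17.4), Dusp1 (40.8 ± 6.55) and Dusp4 (36.2 ± 12.8 CPM per kilobase) overlapped in turn. At 2 weeks the same organoids had Dusp9 in first place at 113 ± 17.1 CPM per kilobase, overlapping Dusp6 at 97.6 ± 32.5, whereas Dusp9 stood at 13.1 ± 1.13 in the 48-hour table. These are separate experiments whose difference was not tested. Dusp8 or Dusp2 took the last place in each culture. Dusp8 stood at 0.721 ± 0.0912 CPM per kilobase in 3311 and 0.356 ± 0.282 in 3154 at 2 weeks, and Dusp2 at 0.0377 ± 0.0151 in 1027B. Human levels are not ranked between genes, since no human gene lengths were used here. In counts, the 6 libraries of 1027B held 2, 1, 1, 3, 12 and 0 reads of Dusp2, and the gene did not pass the filter on low counts in that table.

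**Figure D1:**
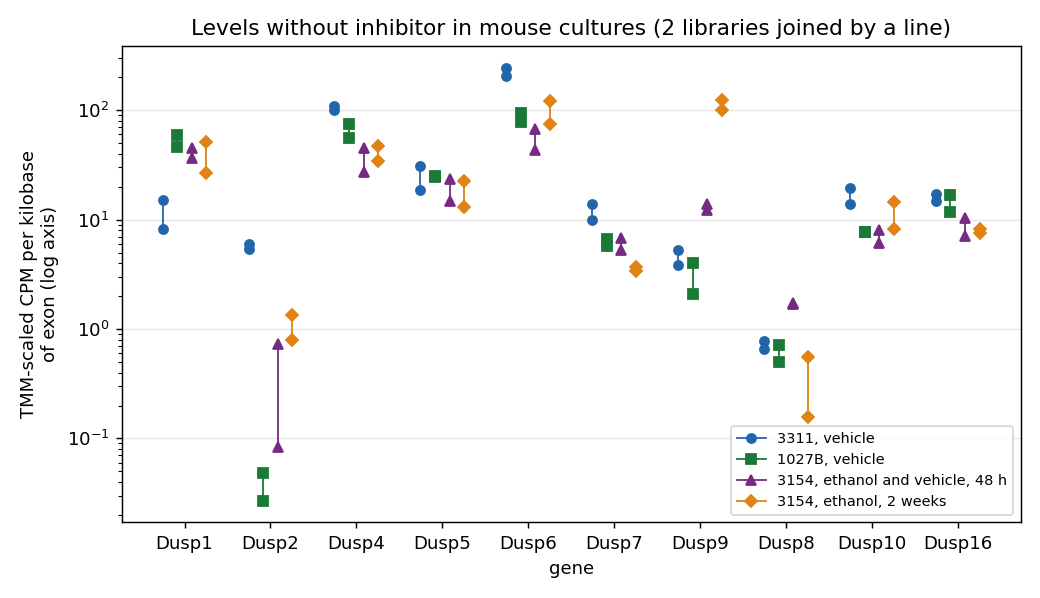
TMM-scaled CPM per kilobase of exon (log axis) of the 10 members in the libraries without inhibitor of the 4 mouse tables, with the 2 libraries of a group joined by a line. Dusp6 reaches 225 in 3311, while Dusp2 in 1027B lies at 0.0377 and Dusp9 at 2 weeks in 3154 lies at 113.

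Trametinib at 50 nM lowered 6 of the 10 members in 3311 cells and raised 3. Dusp4, Dusp5 and Dusp6, the transcripts most often read as ERK output, fell furthest, and Dusp1, Dusp8 and Dusp9 rose. Of all 15224 genes tested, 19.4% were called higher and 19.6% lower, so a call in itself is common in this comparison. Among the nuclear members, Dusp4 stood at 301 and 276 CPM in the vehicle libraries and 33.3 and 37.5 with trametinib. The groups do not overlap, and 12.3% of the vehicle level was left, a log2 change of -3.03 (SE 0.149, adjusted p 0.000262). Dusp4 encodes a nuclear phosphatase of ERK and JNK. Dusp5 went from 46.1 and 77.2 to 15.4 and 16.1 CPM, a log2 change of -1.97 (SE 0.250, adjusted p 0.00179). Dusp2 went from 10.9 and 12.1 to 7.46 and 5.71 CPM, a log2 change of -0.80 (adjusted p 0.0382). Dusp1, the early-response member, moved the other way, from 27.4 and 49.8 to 64.8 and 74.4 CPM (log2 change 0.85, SE 0.267, adjusted p 0.0411). Dusp6, the cytoplasmic ERK phosphatase, stood at 644 and 768 CPM in vehicle and 157 and 229 with trametinib, which left 27.3% and gave a log2 change of -1.87 (SE 0.218, adjusted p 0.00133). The vehicle and trametinib libraries do not overlap. Dusp7 fell from 46.9 and 33.3 to 26.7 and 18.1 CPM (log2 fold change -0.84, adjusted p 0.0335), and Dusp9 rose from 10.4 and 14.2 to 26.2 and 32.7 CPM (log2 change 1.26, SE 0.223, adjusted p 0.00590). The 3 genes of this class thus did not share a direction. The stress-kinase phosphatases did not share one either. Dusp8 rose from 3.20 and 3.82 to 8.39 and 7.38 CPM (log2 fold change 1.17, adjusted p 0.0149), and Dusp10 fell from 42.4 and 58.8 to 32.2 and 34.9 (log2 fold change -0.59, adjusted p 0.0414). Dusp16 stood at 135 and 116 against 116 and 109 CPM, overlapping groups with a log2 difference of -0.15 (95% interval -0.48 to 0.18, adjusted p 0.417). With any 1 of the 4 libraries left out, Dusp4, Dusp5, Dusp6 and Dusp9 were still called. Dusp1 was lost without control replicate 1 (adjusted p 0.0676), Dusp7 without control replicate 1 (0.139) or trametinib replicate 2 (0.110), Dusp8 without trametinib replicate 1 (0.0878), Dusp10 without control replicate 2 (0.105) or either trametinib library (0.148 and 0.0615), and Dusp2 without any one of the 4 (0.0519 to 0.246). Leukocyte markers summed to 9.55 to 15.7 CPM in vehicle and 21.8 to 28.6 with trametinib, with Ptprc at 0 in all 4 libraries. Over these libraries Csf1r ran from 4.68 to 27.7 CPM and Cd68 from 0.951 to 4.87. The 4 lung epithelial markers, all with counts, summed to 4463 to 5115 CPM in vehicle and 464 to 565 with trametinib. The part of both lists in these changes was not tested.

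In 1027B organoids, 10 nM trametinib lowered Dusp4, Dusp5 and Dusp6 and raised Dusp7, Dusp8, Dusp9 and Dusp10. The 3 falls were of the nuclear and cytoplasmic ERK phosphatases, and no member of the JNK and p38 class fell. These are 3 lower and 4 higher of 9 members tested, where 13.2% and 13.5% of 14555 genes were called lower and higher. Dusp4 stood at 153 and 205 CPM in vehicle and 28.4 and 43.7 with trametinib (log2 change -2.31, SE 0.229, adjusted p 0.00143). Dusp5 stood at 60.3 and 61.6 against 12.9 and 19.7 CPM (log2 change -1.90, SE 0.220, adjusted p 0.00222). The vehicle and trametinib libraries of both genes lie far apart, with 20.1% and 26.7% of the vehicle level left. Dusp1 did not follow them, at 152 and 198 CPM in vehicle and 123 and 171 with trametinib, where the groups overlap (log2 fold change -0.25, adjusted p 0.372). Dusp6 had the largest change of the family, from 246 and 296 CPM to 30.4 and 47.5, which left 14.4% (log2 change -2.80, SE 0.220, adjusted p 0.000830). Dusp7, of the same cytoplasmic class, rose from 19.4 and 22.2 to 43.0 and 39.8 CPM (log2 change 0.99, SE 0.127, adjusted p 0.00323). Dusp9 rose from 5.71 and 10.9 to 25.8 and 22 CPM (log2 change 1.52, SE 0.293, adjusted p 0.0117). Among the stress-kinase members Dusp8 rose from 2.42 and 3.47 to 6.32 and 11.2 CPM (log2 change 1.58, SE 0.424, adjusted p 0.0349). Dusp10 rose from 23.7 and 23.6 to 29.9 and 35.5 CPM (log2 fold change 0.47, adjusted p 0.0386). Dusp16 stood at 91.8 and 129.9 against 143 and 155 CPM and was not called (log2 fold change 0.43, adjusted p 0.0977). The replicate numbers of this table were taken as pairs from correlations between its libraries, not from the labels. The fit with the replicate block, which called 44.9% of all genes, also called Dusp1 (-0.26, adjusted p 0.0283) and Dusp16 (0.44, adjusted p 0.0125). Dusp10 was lost without any 1 of the 6 libraries (adjusted p 0.0581 to 0.179) and with the MRTX1133 libraries left out of the fit (0.0565), Dusp8 without control replicate 1 (0.141), control replicate 2 (0.0749) or trametinib replicate 2 (0.147), and Dusp9 without trametinib replicate 1 (0.0673). The 4 lung epithelial markers, all with counts, summed to 6288 to 10276 CPM in vehicle, 2229 to 2786 with trametinib and 3023 to 4634 with MRTX1133. In the same order the 6 epithelial markers summed to 9213 to 9394, 7598 to 8438 and 8148 to 8364 CPM, leukocyte markers to 7.80 to 8.28, 6.44 to 7.17 and 5.33 to 5.50, and fibroblast markers to 0.533 to 0.921, 1.03 to 1.69 and 1.11 to 1.69. The part of these lists in the changes of the phosphatases was not tested.

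MRTX1133 at 20 nM lowered Dusp4, Dusp5 and Dusp6 in 1027B organoids, to 46.3%, 47.1% and 43.7% of their vehicle level, and raised Dusp9. It was set against the same vehicle libraries as trametinib. The count is 3 lower and 1 higher of 9, where 3.26% and 3.01% of all genes were called. Dusp4 stood at 80.9 and 85.3 CPM with MRTX1133 (log2 change -1.11, SE 0.220, adjusted p 0.0362), Dusp5 at 25.4 and 32.1 (log2 change -1.09, SE 0.213, adjusted p 0.0353) and Dusp6 at 114 and 123 (log2 change -1.20, SE 0.207, adjusted p 0.0248). Each lies between the vehicle and the trametinib libraries without overlapping either. Dusp9 stood at 20.6 and 24.0 CPM (log2 change 1.42, SE 0.292, adjusted p 0.0401), next to 25.8 and 22 with trametinib. The remaining members were not called. Dusp7 stood at 24.4 and 23.2 CPM (log2 fold change 0.19, adjusted p 0.415) beside 19.4 and 22.2 in vehicle, and Dusp8 at 4.27 and 8.03 (log2 fold change 1.06, adjusted p 0.200). Dusp1 stood at 128 and 149 CPM (log2 fold change -0.34, adjusted p 0.345), Dusp10 at 27.6 and 28.3 (log2 fold change 0.24, adjusted p 0.328) and Dusp16 at 139 and 142 (log2 fold change 0.34, adjusted p 0.267). With the replicate block, where 24.1% of all genes were called, the count of called members was 7, adding Dusp1 (-0.33, adjusted p 0.0176), Dusp8 (1.02, adjusted p 0.0107) and Dusp16 (0.36, adjusted p 0.0481). Without the block, leaving out 1 control or MRTX1133 library ended the calls of Dusp4 (adjusted p 0.0637 to 0.164), Dusp5 (0.0809 to 0.173) and Dusp6 (0.0637 to 0.124) whichever of the 4 it was, and Dusp9 was lost without any library but control replicate 2 (0.0641 to 0.136) and with only vehicle and MRTX1133 fitted (0.0668).

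The 2 inhibitors can be set side by side only at 1 dose each, 10 nM trametinib and 20 nM MRTX1133, both for 48 hours, and the doses differ. Trametinib is an allosteric MEK inhibitor, and the pair are not analogues of each other. In the direct comparison of the 6 libraries no member was called of 9 tested, and none of the 14555 genes was (0% higher and 0% lower), although 4 members had an unadjusted p under 0.05 in edgeR, as did 16.2% of all genes, and DESeq2 called 4 members and 4.09% of its genes. Those 4 were Dusp6, which was 1.6 higher on the log2 scale with MRTX1133 (95% interval 1.10 to 2.11, adjusted p 0.0759), Dusp4 (log2 difference 1.20, interval 0.67 to 1.74, adjusted p 0.107), Dusp5 (log2 difference 0.82, interval 0.30 to 1.33, adjusted p 0.166) and Dusp7, which was lower with MRTX1133 (log2 difference -0.80, interval -1.10 to -0.50, adjusted p 0.0819). With the replicate block the adjusted p was 0.000616 for Dusp6, 0.00133 for Dusp4, 0.00364 for Dusp7 and 0.00873 for Dusp5, and all 4 were called, along with 14.1% of all genes. For the other members the difference between the drugs had intervals that span 0, among them Dusp9 (log2 difference -0.10, interval -0.76 to 0.56), Dusp8 (log2 difference -0.52, interval -1.48 to 0.43), Dusp1 (log2 difference -0.09, interval -0.55 to 0.37), Dusp10 (log2 difference -0.23, interval -0.54 to 0.08) and Dusp16 (log2 difference -0.08, interval -0.47 to 0.30). Such an interval does not show that the drugs act alike on these genes.

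**Figure D2:**
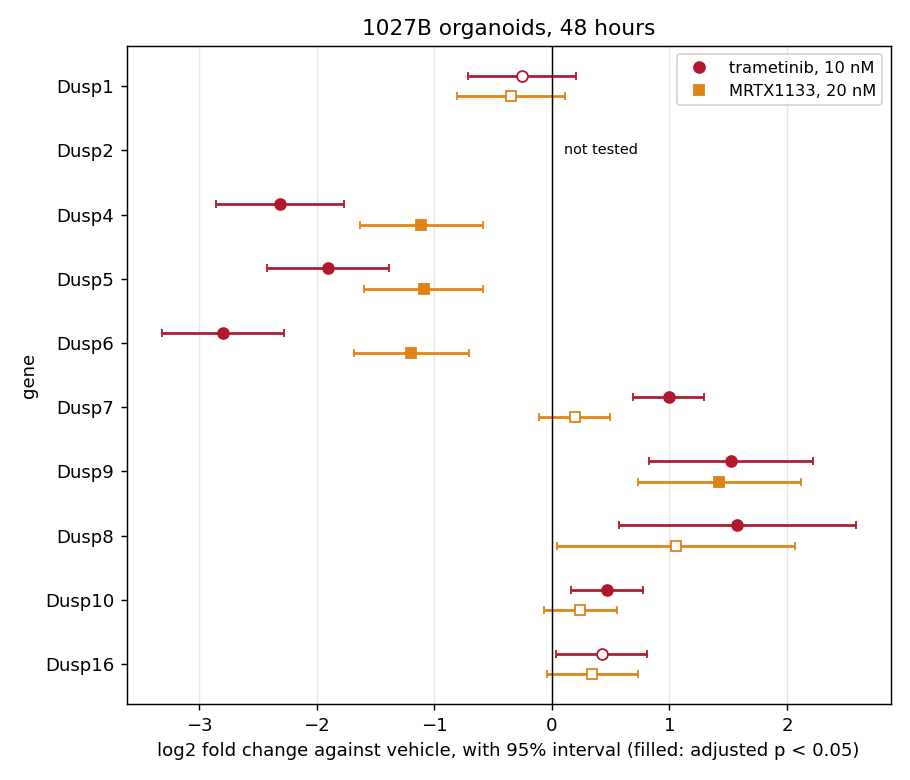
Log2 fold change against vehicle with its 95% interval for the 9 members tested in 1027B organoids, for 10 nM trametinib and 20 nM MRTX1133, which share their 2 vehicle libraries. Filled symbols are called, and for Dusp6 trametinib lies at -2.80 and MRTX1133 at -1.20, while Dusp9 lies at 1.52 and 1.42.

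In human H358 cells 20 nM trametinib left little DUSP6, whose 6110 and 5925 reads in the vehicle libraries became 30 and 31. It lowered DUSP5, DUSP4, DUSP9, DUSP2 and DUSP7 as well and raised DUSP1, DUSP8 and DUSP10. These are 6 lower and 3 higher of 10, where 23.2% and 23.5% of 18972 genes were called. DUSP6 stood at 158 and 177 CPM in vehicle and 0.645 and 1.22 with trametinib. Its log2 change was -7.59 (SE 0.230, adjusted p 1.40e-06), or 193-fold lower, and it left 0.555% of the vehicle level. DUSP5, the nuclear ERK phosphatase, went from 60.5 and 42.1 to 2.36 and 3.34 CPM (log2 change -4.20, SE 0.242, adjusted p 1.54e-05). DUSP4 went from 214 and 175 to 24.2 and 27.4 CPM (log2 change -2.92, SE 0.138, adjusted p 7.53e-06). DUSP2 was low throughout, at 2.07 and 2.45 against 0.688 and 1.37 CPM (log2 fold change -1.19, adjusted p 0.0256). DUSP1 rose from 13.4 and 10.1 to 67.7 and 34.3 CPM (log2 change 2.12, SE 0.299, adjusted p 0.000803), and both trametinib libraries lie above both vehicle libraries. The other cytoplasmic members fell here. DUSP7 went from 34.6 and 39.1 to 17.4 and 24.2 CPM (log2 fold change -0.83, adjusted p 0.00522), and DUSP9 from 2.12 and 2.99 to 0.688 and 0.746 (log2 change -1.83, SE 0.308, adjusted p 0.00189). DUSP10, a phosphatase of JNK and p38, rose from 30.2 and 28 to 54.1 and 74.0 CPM (log2 change 1.13, SE 0.159, adjusted p 0.000787). DUSP8 rose from 5.28 and 5.20 to 10.2 and 11.7 CPM (log2 change 1.06, SE 0.172, adjusted p 0.00158). DUSP16 stood at 24.9 and 25.6 against 26.8 and 34.6 CPM and was not called (log2 fold change 0.28, adjusted p 0.161). DUSP2 was lost without control replicate 2 (adjusted p 0.0567) or trametinib replicate 1 (0.148), and the other 8 calls were made with any 1 library left out. The fibroblast markers summed to 33.1 to 37.3 CPM in vehicle and 119 to 147 with trametinib in this line, with DCN at 0 in 2 of the 4 libraries. The 6 epithelial markers summed to 5680 to 5964 CPM in vehicle and 4073 to 4319 with trametinib. Endothelial markers summed to 11.6 to 14.2 CPM in vehicle and 20.8 to 21 with trametinib, and the lung markers, of which only NKX2-1 had counts, to 118 to 132 and 170 to 176. The part of these 4 lists in the changes was not tested.

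In H1651 cells at the same dose and time the edgeR test called no member, and none of 18277 genes (0% higher and 0% lower). At an unadjusted p under 0.05 there were 4 members and 3.27% of all genes, and DESeq2 called DUSP6 and DUSP4, 2 of 10, and 0.186% of its genes. DUSP6 stood at 49.8 and 51.8 CPM in vehicle and 5.27 and 7.46 with trametinib, groups that do not overlap and with 12.5% left. The log2 difference was -3.00 (95% interval -3.48 to -2.51, p 1.63e-05, adjusted p 0.149), the smallest adjusted p of all genes in this table. Without the count filter the adjusted p was 0.0266, and 0.0079% of genes were called. DUSP6 was called with any 1 library left out except trametinib replicate 1 (adjusted p 9.56e-10 to 0.0608), and without control replicate 1 the members called were 3, DUSP4, DUSP5 and DUSP6. DUSP4 stood at 12.1 and 17.3 against 2.39 and 4.83 CPM (log2 difference -2.03, interval -3.00 to -1.05, adjusted p 0.999). DUSP5 stood at 10.4 and 18.1 against 6.87 and 10.7 CPM, where the groups overlap (log2 difference -0.70, interval -1.57 to 0.18). DUSP8 stood at 9.28 and 8.40 in vehicle and 12.4 and 14.6 CPM with trametinib (log2 difference 0.61, interval 0.23 to 1.00), and DUSP16 at 66.1 and 65.5 against 52.2 and 51.3 (log2 difference -0.35, interval -0.56 to -0.14). These 2 are the other members under an unadjusted p of 0.05. DUSP1 (55.3 and 86.0 against 53.5 and 78.9 CPM), DUSP2 (13.0 and 31.6 against 11.4 and 29.5), DUSP7 (6.51 and 7.72 against 5.92 and 7.94), DUSP9 (17.4 and 22.7 against 16 and 22.5) and DUSP10 (3.85 and 3.86 against 3.91 and 3.11) overlapped between the groups, with log2 differences from -0.13 to -0.04. In several members, DUSP2 and DUSP1 among them, replicate 2 was the higher library in both groups. The deviations of same-numbered libraries correlated over genes at r 0.623. A fit with a replicate block called 5 members and 10.3% of all genes. With 1 pair of groups this correlation settles no pairing, so the counts above are from the fit without the block. Fibroblast markers summed to 325 to 360 CPM in vehicle and 410 to 483 with trametinib, all 4 having counts, and their part in these values was not tested.

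Whether the 2 human lines responded differently was tested in 1 fit over their 8 libraries. The trametinib change was more negative in H358 for DUSP5, DUSP6 and DUSP9 and more positive for DUSP1, DUSP10 and DUSP16, which is 3 lower and 3 higher of 10, where 9.86% and 9.43% of 21188 genes were called. The difference for DUSP6 was -4.56 on the log2 scale (SE 0.323, adjusted p 0.000279), and its CPM was down to 0.555% of vehicle in H358 and 12.5% in H1651. DUSP5 differed by -3.48 (SE 0.468, adjusted p 0.00200) and DUSP9 by -1.74 (SE 0.374, adjusted p 0.0138). DUSP1 differed by 2.24 (SE 0.499, adjusted p 0.0160), DUSP10 by 1.29 (SE 0.243, adjusted p 0.00818) and DUSP16 by 0.65 (SE 0.169, adjusted p 0.0293). In each of these 3 the H358 value lay above 0 and the H1651 value below it. The H1651 values of DUSP1 and DUSP10 came from overlapping groups. With a library left out they ran from -0.40 to 0.27 and from -0.31 to 0.0219. DUSP16 was called in neither line. DUSP4 had a difference of -0.87 (95% interval -1.76 to 0.03, adjusted p 0.163), DUSP7 of -0.77 (interval -1.41 to -0.13), DUSP8 of 0.47 (interval -0.02 to 0.97) and DUSP2 of -1.06 (interval -2.94 to 0.81), none of them called. DUSP16 was lost without any library but H358 trametinib replicate 1 (adjusted p 0.0648 to 0.0937). Without H358 control replicate 2 DUSP1 (0.0740) and DUSP9 (0.0545) were also lost, and DUSP9 without H358 trametinib replicate 1 (0.0668).

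**Figure D3:**
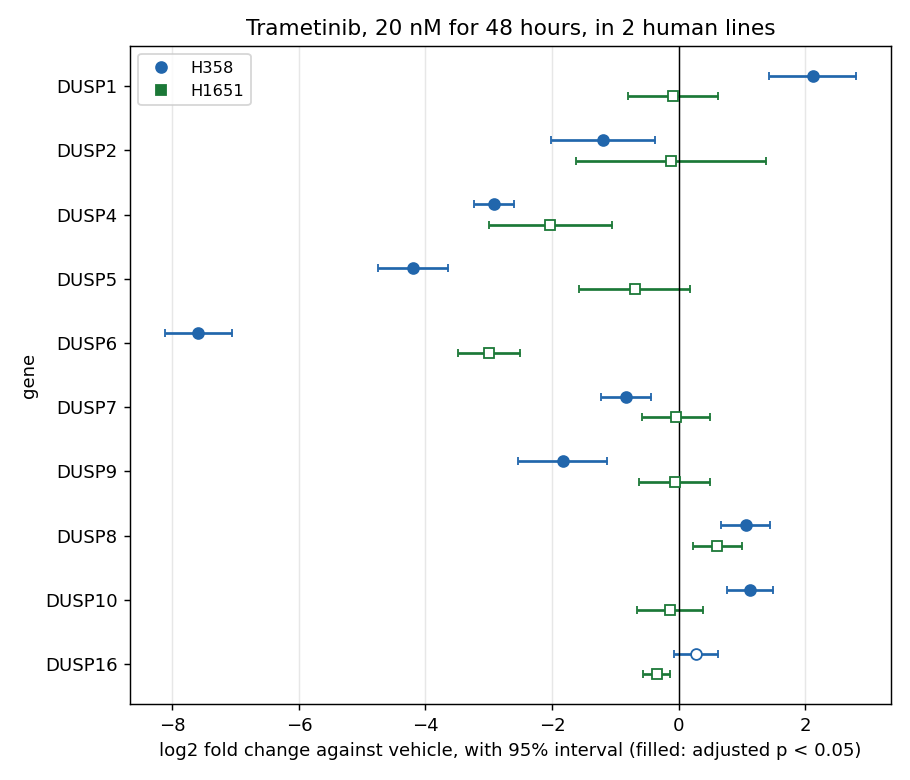
Log2 fold change with 20 nM trametinib and its 95% interval for the 10 members in H358 and H1651, 2 libraries a group. Filled symbols are called, which holds for 9 members in H358 and for none in H1651, and DUSP6 lies at -7.59 and -3.00.

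In 3154 organoids with intact Hnf4a, 3 nM MRTX1133 gave no called member of 10, where 0.317% and 0.0323% of 15458 genes were called higher and lower. At an unadjusted p under 0.05 edgeR had 4 members and 11.8% of all genes, and DESeq2 called 1 member, Dusp1, and 1.77% of its genes. Dusp1 stood at 151 and 119.9 CPM in vehicle and 94.4 and 75.9 with the drug (log2 difference -0.67, 95% interval -1.04 to -0.30, adjusted p 0.159). Dusp4 stood at 124 and 74.3 against 63.2 and 42.5 CPM (log2 difference -0.91, interval -1.51 to -0.30). In both genes replicate 1 was higher than replicate 2 in each group. Dusp5 (36.7 and 57.5 against 28.3 and 41.9 CPM) and Dusp6 (135 and 212 against 134 and 193) overlapped between the groups, with log2 differences of -0.42 (interval -1.0 to 0.15) and -0.09 (interval -0.63 to 0.45). Dusp8 stood at 8.16 and 8.39 against 6.39 and 5.91 CPM (log2 difference -0.43, interval -0.83 to -0.02) and Dusp9 at 33.6 and 37.9 against 46.2 and 42.4 (log2 difference 0.31, interval 0.00379 to 0.61), the other 2 under an unadjusted p of 0.05. Dusp2, Dusp7, Dusp10 and Dusp16 overlapped, with log2 differences from -0.21 to -0.01. Without ethanol vehicle replicate 2 the members called were 2, Dusp1 and Dusp4.

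After 4OHT the same dose again gave no called member, where 2.1% of genes were called higher and 2.54% lower. Here 4 members and 20.4% of all genes had an unadjusted p under 0.05 in edgeR, and DESeq2 called 2 members, Dusp8 and Dusp10, and 7.18% of its genes. Dusp8 stood at 5.50 and 6.88 CPM in vehicle and 11.0 and 9.90 with MRTX1133 (log2 difference 0.76, 95% interval 0.36 to 1.17, adjusted p 0.0519). Dusp10 stood at 19.5 and 19.6 against 35.5 and 28.5 CPM (log2 difference 0.71, interval 0.31 to 1.12, adjusted p 0.0625). The libraries with the drug lie above both vehicle libraries for these 2 phosphatases of stress kinases. Dusp6 stood at 279.7 and 292 against 186 and 191 CPM (log2 difference -0.60, interval -1.14 to -0.06, adjusted p 0.198), and Dusp5 at 40.7 and 41.5 against 28.3 and 24.7 (log2 difference -0.63, interval -1.21 to -0.06, adjusted p 0.202). Dusp4 stood at 64.9 and 59.3 against 48.8 and 49.4 CPM (log2 difference -0.34, interval -0.94 to 0.26). For all 3 the libraries with the drug lie below those without. The share of all genes whose groups do not overlap was not counted, here or in the other comparisons. Dusp7 (log2 difference 0.28, 34.3 and 35.4 against 42.9 and 42.0 CPM), Dusp16 (log2 difference 0.22, 66.3 and 63.9 against 73.3 and 78.3) and Dusp9 (log2 difference -0.30, 42.0 and 38.2 against 32.6 and 32.5) also did not overlap, and Dusp1 and Dusp2 did, with log2 differences of 0.01 and 0.05. Fitted on these 4 libraries alone, without the ethanol groups, 7 members and 26.5% of all genes were called, with adjusted p-values of 0.0255 for Dusp4, 0.00294 for Dusp5, 0.00159 for Dusp6, 0.0389 for Dusp7, 0.00849 for Dusp8, 0.0440 for Dusp9 and 0.00397 for Dusp10. With 1 of the 8 libraries left out the log2 difference ran from 0.61 to 0.93 for Dusp8 and 0.55 to 0.86 for Dusp10. The difference between the MRTX1133 changes after 4OHT and after ethanol was called by edgeR for no member and no gene (0% higher and 0% lower). In edgeR 4 members and 7.44% of all genes had an unadjusted p under 0.05, and DESeq2 called no member and 0.167% of its genes. These were Dusp8 (log2 difference 1.19, 95% interval 0.61 to 1.76, adjusted p 0.541), Dusp10 (log2 difference 0.75, interval 0.18 to 1.32), Dusp1 (log2 difference 0.68, interval 0.16 to 1.20) and Dusp9 (log2 difference -0.61, interval -1.04 to -0.18). For Dusp6 the difference was -0.51 (interval -1.27 to 0.25). The lung epithelial markers summed to 6381 to 8689 CPM in vehicle and 10738 to 13659 with MRTX1133 after ethanol, and to 7988 to 9353 and 13201 to 17475 after 4OHT, all 4 having counts, and their part in these values was not tested.

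Removing Hnf4a raised Dusp7 at 2 weeks and in both arms of the 48-hour experiment, while the other calls were not the same in the 3 comparisons. The difference between the 2 arms of the 48-hour experiment is the interaction given above, which was called for no member, and the difference from 2 weeks was not tested. At 2 weeks Dusp7 rose and Dusp9 fell, 1 higher and 1 lower of 10, where 4.03% and 5.78% of 14492 genes were called. Dusp7, a cytoplasmic ERK phosphatase, stood at 11.3 and 12.5 CPM after ethanol and 22.3 and 26.7 after 4OHT (log2 change 1.05, SE 0.186, adjusted p 0.0274). Dusp9, the member with the highest mean per kilobase in these ethanol libraries, fell from 274 and 339 to 123 and 91.0 CPM (log2 change -1.52, SE 0.197, adjusted p 0.0146). Dusp1 stood at 88.0 and 171 CPM after ethanol and 38.8 and 82.3 after 4OHT and was not called (log2 difference -1.09, 95% interval -2.19 to 0.00244, adjusted p 0.175). Dusp8 was low, at 2.7 and 0.764 against 3.48 and 3.04 CPM (log2 difference 0.88, interval -0.54 to 2.31). Dusp4, Dusp5, Dusp6, Dusp10, Dusp16 and Dusp2 overlapped between the groups, with log2 differences of -0.06, -0.21, -0.32, -0.70, -0.08 and 0.47 in that order. For Dusp6 the 4 libraries stood at 234 and 378 CPM after ethanol and 196 and 293 after 4OHT, and replicate 2 was the higher of each pair. Dusp7 was lost without 4OHT replicate 1 (log2 change 1.17) or replicate 2 (0.91). With 1 library left out the log2 difference ran from -1.73 to -0.54 for Dusp1, 0.27 to 2.07 for Dusp8 and -1.25 to -0.24 for Dusp10. Leukocyte markers summed to 18.4 to 44.6 CPM after ethanol and 9.91 to 13.3 after 4OHT, all 3 listed markers having counts. Over the 4 libraries Csf1r ran from 3.45 to 38.1 CPM, Cd68 from 5.11 to 7.76 and Ptprc from 0.0659 to 0.375. Endothelial markers summed to 5.08 to 5.93 CPM after ethanol and 2.17 to 2.51 after 4OHT. The part of both lists in these changes was not tested.

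In the 48-hour experiment without inhibitor, deletion raised Dusp7 and lowered Dusp1, where 15.3% and 15.7% of 15458 genes were called. A count of 1 in each direction of 10 is near these shares. Dusp7 stood at 22.8 and 17.7 CPM after ethanol and 34.3 and 35.4 after 4OHT (log2 change 0.79, SE 0.163, adjusted p 0.00936). Dusp1 fell from 151 and 119.9 to 49.1 and 48.3 CPM (log2 change -1.47, SE 0.163, adjusted p 0.000798), which left 36.0%. Dusp6 stood at 135 and 212 against 279.7 and 292 CPM without overlap and just missed the threshold (log2 difference 0.72, 95% interval 0.18 to 1.26, adjusted p 0.0505), while DESeq2, which called 26.6% of its genes, called it (adjusted p 0.0210). Dusp4 stood at 124 and 74.3 against 64.9 and 59.3 CPM (log2 fold change -0.67, adjusted p 0.0848), and Dusp8 at 8.16 and 8.39 against 5.50 and 6.88 (log2 fold change -0.42, adjusted p 0.106). Dusp2 was scarce, at 0.168 and 1.47 CPM after ethanol and 2.05 and 2.59 after 4OHT (log2 fold change 1.49, adjusted p 0.128). Dusp9, Dusp10, Dusp5 and Dusp16 had log2 differences of 0.17, -0.15, -0.20 and -0.07. Dusp7 was lost without either 4OHT vehicle library (adjusted p 0.0598 and 0.0734), and Dusp1 was called with any 1 library left out. Without ethanol vehicle replicate 2 the members called were 5, with Dusp2, Dusp4 and Dusp6 added, and without either ethanol library with MRTX1133 they were 3, with Dusp6 added.

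With 3 nM MRTX1133 present, deletion raised Dusp7, Dusp8 and Dusp10 and lowered Dusp1 and Dusp9, which is 3 higher and 2 lower of 10, where 13.2% and 14.5% of genes were called. Dusp7 stood at 19.1 and 15.9 CPM after ethanol and 42.9 and 42.0 after 4OHT (log2 change 1.28, SE 0.165, adjusted p 0.00142). Dusp8 rose from 6.39 and 5.91 to 11.0 and 9.90 CPM (log2 change 0.77, SE 0.175, adjusted p 0.0150), and Dusp10 from 21.9 and 20.4 to 35.5 and 28.5 (log2 fold change 0.60, adjusted p 0.0375). Dusp1 fell from 94.4 and 75.9 to 50.3 and 47.9 CPM (log2 change -0.79, SE 0.161, adjusted p 0.00921), and Dusp9 from 46.2 and 42.4 to 32.6 and 32.5 (log2 fold change -0.44, adjusted p 0.0399). Dusp6 stood at 134 and 193 against 186 and 191 CPM, overlapping, with a log2 difference of 0.21 (95% interval -0.33 to 0.75). Dusp4, Dusp5 and Dusp16 overlapped too, with log2 differences of -0.11, -0.40 and 0.17, and Dusp2 did not (log2 fold change 1.57, adjusted p 0.115). Dusp7 alone of these 5 was called with any 1 library left out. Dusp9 was also lost with at least 10 counts in every library (adjusted p 0.0508) and with only the MRTX1133 groups fitted (0.0518), where Dusp2 was called (0.0153). With the replicate block, although the numbers of this table were not taken as pairs, 4 members and 28.4% of all genes were called. Dusp1 was lost without 4OHT replicate 1 or 2 with MRTX1133 or ethanol replicate 1 with it (adjusted p 0.0614 to 0.0785), Dusp8 without either of those 4OHT libraries or ethanol replicate 2 with MRTX1133 (0.0610 to 0.104), and Dusp9 (0.0699 to 0.178) and Dusp10 (0.0675 to 0.235) without any 1 library of the MRTX1133 groups or of the 4OHT vehicle group. These 4OHT and ethanol groups are the ones of the drug comparisons above, so the 2 sets of changes share libraries.

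In H1651 cells, doxycycline for 7 days raised DUSP6 and no other member. HNF4A stood at 47.1 and 35.9 CPM without doxycycline and 94.4 and 96.8 with it. For the family that is 1 higher and 0 lower of 10, where 1.04% and 0.386% of 17351 genes were called. DUSP6 stood at 52.9 and 53.4 CPM without doxycycline and 71.4 and 83.2 with it (log2 change 0.54, SE 0.0914, adjusted p 0.0449). DUSP4 stood at 40.4 and 48.9 against 33.8 and 31.5 CPM, apart but not called (log2 difference -0.45, 95% interval -0.71 to -0.19, adjusted p 0.123). DUSP7 was low, at 6.84 and 5.96 against 5.89 and 5.25 CPM (log2 fold change -0.20, adjusted p 0.721). DUSP1 stood at 137 and 206 against 81.9 and 179 CPM, with replicate 2 the higher in each group (log2 fold change -0.39, adjusted p 0.719), and DUSP2 at 40.1 and 62.3 against 45.9 and 77.6 (log2 fold change 0.27, adjusted p 0.765). DUSP5, DUSP8, DUSP9, DUSP10 and DUSP16 overlapped between the groups, with log2 differences from -0.13 to 0.18. The DUSP6 call was lost without doxycycline replicate 2 (log2 change 0.43) or without either library of the other group (0.53 and 0.55). It was also lost with at least 10 counts required in every library (adjusted p 0.0508). With 1 library left out the log2 difference ran from -1.06 to 0.0675 for DUSP1 and -0.59 to -0.30 for DUSP4. Fibroblast markers summed to 503 to 547 CPM without doxycycline and 311 to 326 with it, all 4 having counts. In the same order the 6 epithelial markers summed to 4506 to 4513 and 5837 to 6313 CPM. Leukocyte markers summed to 4.49 to 5.31 and 3.44 to 4.44, and endothelial markers to 1.98 to 2.75 and 3.18 to 3.26. The part of these lists in the DUSP6 change was not tested.

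Read across the 7 comparisons of an inhibitor with vehicle, Dusp4, Dusp5 and Dusp6 were each called lower in 4, both in 1027B and those in 3311 and H358, and not called in H1651 or in either comparison in 3154. No other member was called in those 3 comparisons either. The counts here are from the fits without the replicate block. The 2 comparisons in 1027B share their vehicle libraries. Of the remaining nuclear members, Dusp2 was called lower in 2 (3311 and H358) and could not be tested in 1027B, and Dusp1 was called higher in the same 2. Dusp7 was called lower in 2, in 3311 and H358, and higher in 1, in 1027B with trametinib. Dusp9 was called higher in 3 mouse comparisons and lower in H358. Dusp8 was called higher in 3 of the 7 and lower in none, and Dusp10 higher in 2 and lower in 1. Dusp16 was called in none. With the replicate block in 1027B, Dusp16 was called higher in 2, Dusp8 in 4, and Dusp1 higher in 2 and lower in 2, while the other counts were unchanged. The dose of trametinib was 10 nM in 1027B, 20 nM in the human lines and 50 nM in 3311, so the sizes of the changes are not compared between cultures. The log2 change of Dusp6 was -2.80 in 1027B, -1.87 in 3311, -7.59 in H358 and -3.00 in H1651, the last not called. For Dusp4 the same values were -2.31, -3.03, -2.92 and -2.03, and for Dusp5 -1.90, -1.97, -4.20 and -0.70.

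**Figure D4:**
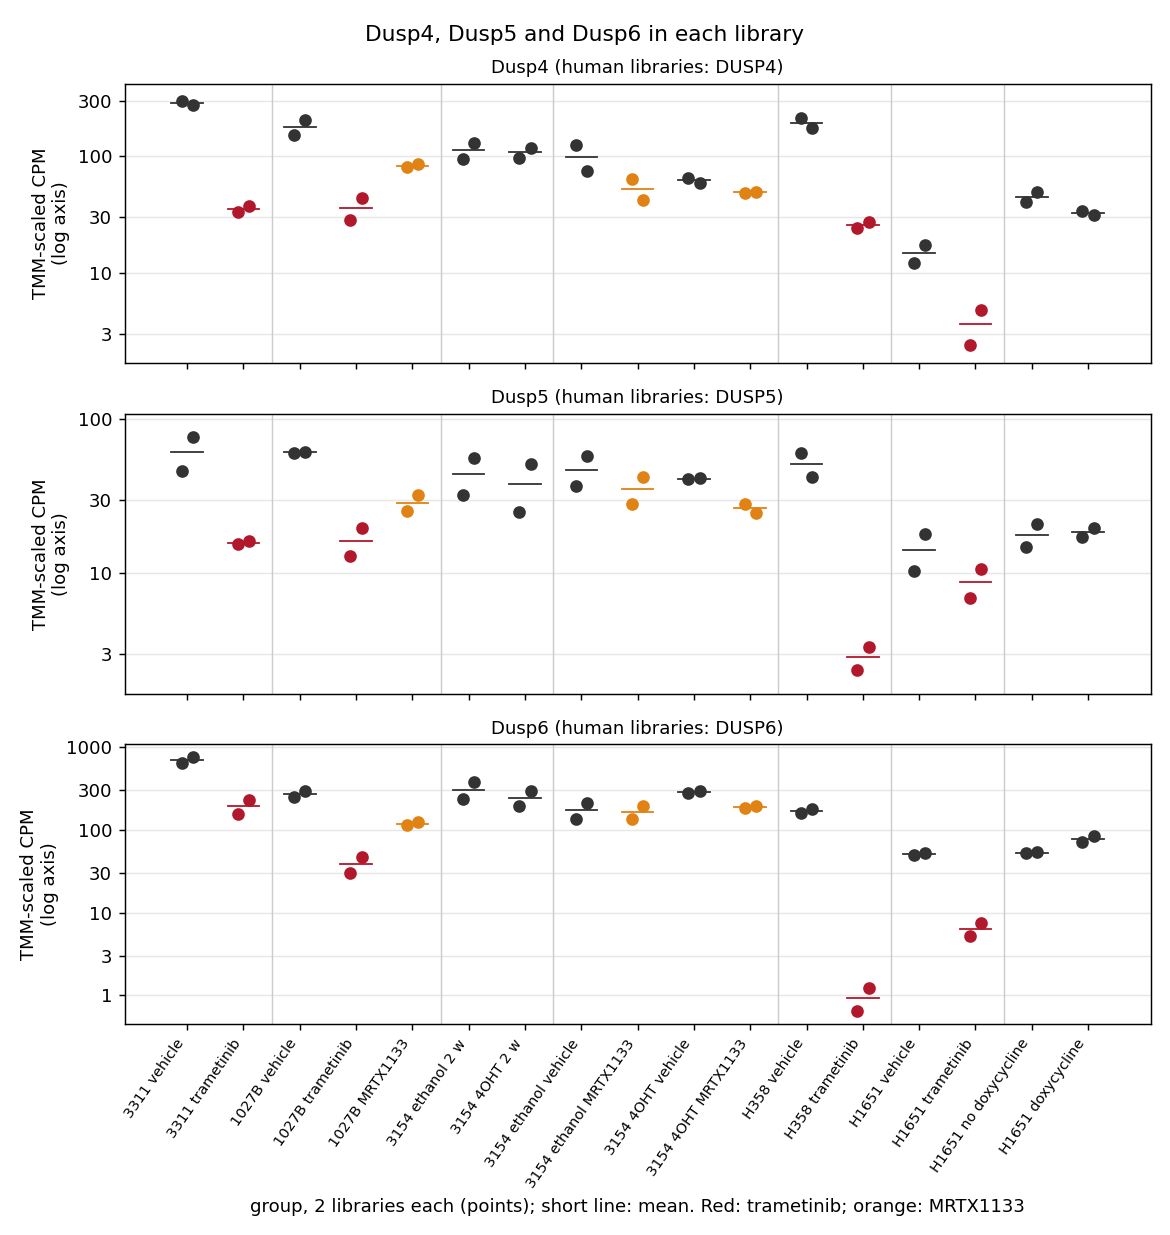
TMM-scaled CPM (log axis) of Dusp4, Dusp5 and Dusp6 in each of the 34 libraries by group, with points for libraries and a short line for the mean, trametinib in red and MRTX1133 in orange. The H358 libraries with trametinib have DUSP6 at 0.645 and 1.22 CPM, against 158 and 177 in vehicle, and the 3154 libraries with 3 nM MRTX1133 after ethanol overlap their vehicle libraries for Dusp6.

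**Figure D5:**
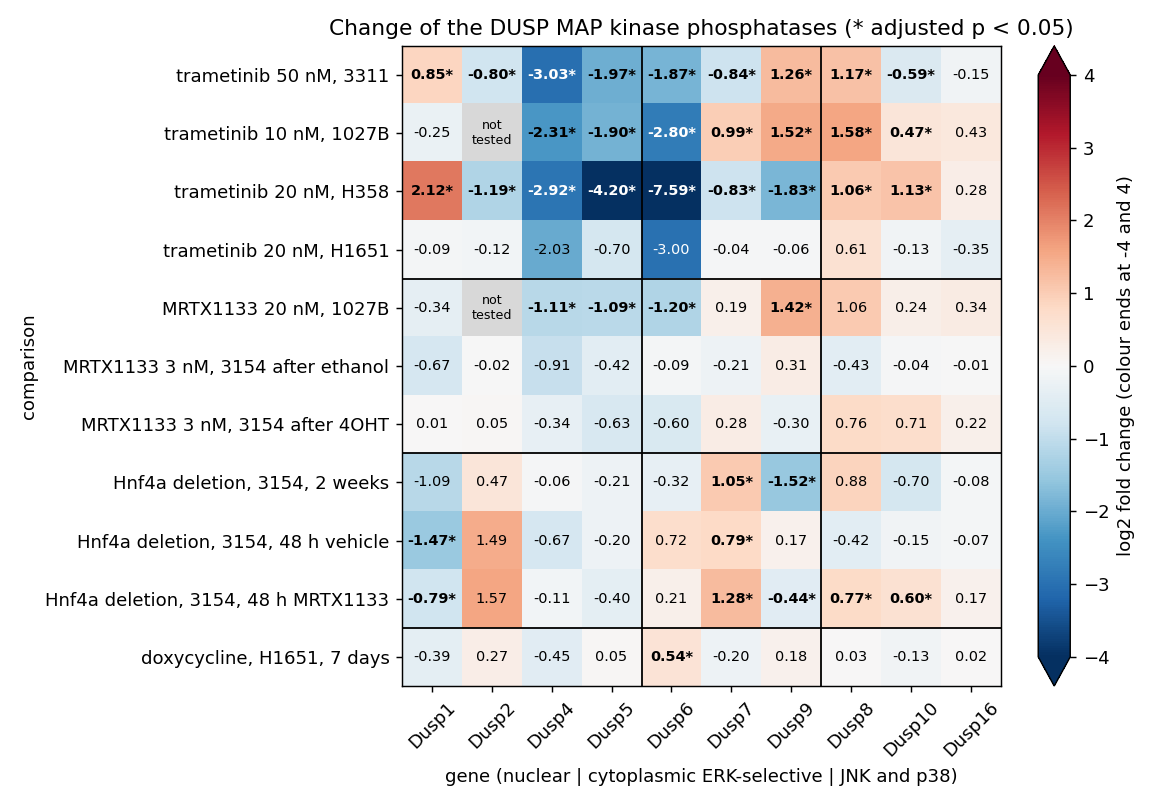
Log2 fold change of the 10 members (columns, in the order nuclear, cytoplasmic ERK-selective, JNK and p38) in each comparison (rows), with colour ending at -4 and 4 and a star where the adjusted p is under 0.05. Dusp4, Dusp5 and Dusp6 are starred and lower under both drugs in 1027B and under trametinib in 3311 and H358, and Dusp7 is starred and higher in the 3 Hnf4a deletion rows.

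Other genes of the pathway were counted in lists chosen with earlier results of these data known. Over all genes, trametinib called 19.6% lower and 19.4% higher in 3311, 13.2% and 13.5% in 1027B, and 23.2% and 23.5% in H358. Of 18 other ERK targets and feedback genes, such as the Sprouty and Etv genes, trametinib lowered 14 and raised 1 in 3311, lowered 13 and raised 1 of 17 tested in 1027B, and lowered 16 and raised 1 in H358. In H1651 it called none of 18 in either direction, and the difference between the human lines was called lower for 9 and higher for 1, beside 9.86% and 9.43% of all genes. Their median log2 change was -1.41 in 3311, -1.05 in 1027B, -1.74 in H358 and -0.82 in H1651, against medians over all genes between -0.01 and 0.02. Etv4, an ETS factor, fell by 6.31 on the log2 scale in 3311 (adjusted p 0.000220) and ETV4 fell by 7.22 in H358 (adjusted p 1.40e-06), and Spry4, a feedback inhibitor of receptor signalling, fell by 4.49 in 1027B (adjusted p 0.00114). MRTX1133 lowered 4 and raised 1 of the 17 in 1027B (median -0.54), among them Fosl1 (-2.07, adjusted p 0.00840), beside 3.26% lower and 3.01% higher of all genes. In 3154 at 3 nM it lowered 5 of 18 after 4OHT (median -0.38) and none after ethanol (median -0.20), in libraries where no phosphatase of the family was called. Of all genes it lowered 2.54% and 0.0323%, and the difference between the 2 changes was called for 0 of the 18. Spry4 was among the 5 called after 4OHT (-1.52, adjusted p 0.0131). The atypical dual-specificity phosphatases, which lack the MAP kinase docking domain, were called in both directions. Trametinib raised 4 and lowered 1 of 9 tested in 3311, raised 2 and lowered 1 of 9 in 1027B, and raised 3 and lowered 3 of 9 in H358. On lists this short, counts of 1 or 2 of 9 lie near the shares over all genes. Dusp14 rose by 1.81 in 3311 and 1.38 in 1027B (adjusted p 0.00302 and 0.00466), and Dusp3 by 1.04 and 0.53 in the same order. Of the MAP kinase kinases, Map2k1, which encodes a target of trametinib, fell in 3311 (-0.75), 1027B (-0.90) and H358 (MAP2K1, -1.34). Trametinib called 2 of 7 of these kinases lower in each of the 3 cultures and 1, 1 and 0 higher. Among the MAP kinases themselves it called 4 of 9 lower in 3311, 1 of 9 in 1027B and 1 of 10 in H358, and 1, 0 and 3 higher. The tyrosine phosphatase Ptprr, which also acts on MAP kinases, fell in 1027B (-2.12, adjusted p 0.00753) and H358 (PTPRR, -1.18, adjusted p 0.0125). It was the 1 gene of its list of 3 that was tested there. The 1 gene of this list tested in 3311 (log2 change 0.55) and in H1651 (0.05) was not called. On Hnf4a deletion, 2 of the 18 other ERK targets rose and 0 fell at 2 weeks, 6 rose and 4 fell at 48 hours in vehicle, and 2 rose and 6 fell with MRTX1133. The shares of all genes called higher and lower were 4.03% and 5.78% at 2 weeks, 15.3% and 15.7% at 48 hours in vehicle, and 13.2% and 14.5% with MRTX1133. Doxycycline in H1651 raised 1, CCND1 (0.42, adjusted p 0.0337).

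The pattern of Dusp6 over libraries was compared with that of every gene tested in all tables of its species, on log2 CPM centred on each table's mean. These correlations describe libraries that share treatments, tables and depth. Over the 22 mouse libraries and 12597 genes, the 5 most alike were Celf4 (r 0.973), Acsbg1 (0.959), Nr4a1 (0.936), Itga2 (0.932) and Gm19610 (0.929). Within the family Dusp5 ranked 14 (r 0.90) and Dusp4 ranked 76 (r 0.82), while Dusp8 ran opposite to Dusp6 (r -0.68), as did Dusp9 (r -0.56). Over the 12 human libraries and 15001 genes, the 5 most alike were ETV5 (r 0.988), MAFF (0.985), STEAP1 (0.984), SLC7A11 (0.983) and SPRED2 (0.983). ETV5 is an ETS factor and SPRED2 a feedback inhibitor of the ERK pathway, and both are on the list of ERK targets. DUSP5 ranked 69 (r 0.957), DUSP4 ranked 278 (r 0.935) and DUSP9 ranked 964 (r 0.904), and DUSP8 had r -0.93.

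Counting could mix reads for a few members. On GRCm38, Dusp5 (ENSMUSG00000034765, chromosome 19, 53529109 to 53542431, plus strand) shares 22.12% of its exon bases with AC137853.2 on the opposite strand, and Dusp8 and Dusp1 share 1.36% and 0.33% with opposite-strand genes. Dusp6 (ENSMUSG00000019960, chromosome 10, 99263231 to 99267489, plus strand) and Dusp4 (ENSMUSG00000031530, chromosome 8, 34807297 to 34819894, plus strand) overlap no other exon. The libraries mark strand, but whether the counting used it is not given in the sources used here, so the Dusp5 values carry that uncertainty. In the human tables the pseudogenes DUSP5P1 and DUSP8P5 have rows of their own, with mean counts per library of 16.75 to 66.75 and 45.25 to 64.25, and reads shared with DUSP5 or DUSP8 could be split.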

How the data were processed

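RNA was sequenced from poly(A)-selected, directional, paired-end libraries, per the labels' protocols. The authors deposited raw read counts per gene in 7 tables, without normalization, and each of the 34 libraries has its own column. Per the submitters' processing notes the tools were cutadapt 3.5, STAR 2.7.6a and featureCounts 1.6.3 and the builds mm10, mm39 and hg38; which mouse table used which build, and whether counting used strand, are not given in the sources used here. The columns of the 3311 table carry no line name and were assigned by the table and the sample titles. No column was without a sample (0).

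Each table was fitted over all its genes in R 4.3.3 with edgeR 4.0.16 (filterByExpr with defaults, TMM factors, quasi-likelihood F-test, Benjamini-Hochberg adjustment over the genes tested), on the counts as deposited. Groups came from the labels. The 6 libraries of 1027B and the 8 of the 48-hour 3154 table shared 1 fit each, and a joint fit of H358 and H1651 tested the difference of their trametinib changes. A gene was called at an adjusted p under 0.05. Standard errors and 95% intervals were derived from the log2 change and its F statistic. Total counts per library were 19692517 to 45284286, a depth at which Dusp2 did not pass the filter in 1027B. The fits were tested on simulated data. Levels per kilobase used the exon union of GENCODE M21 on GRCm38, and promoters came from RefSeq GRCm38.p6. Figures were drawn in Python 3.11.15 with pandas 2.3.3 for the tables.

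In 1027B the deviations of same-numbered libraries correlated over genes at r 0.372, 0.243 and 0.414 for the 3 pairs of groups, all over 0.1, so its numbers were taken as pairs, a reading that comes from these correlations and not from the labels. In the 48-hour 3154 table the 6 values ran from -0.251 to 0.549, and its numbers were not taken as pairs.

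Named genes are all 10 members in every comparison, up to 2 called genes of each pathway list with the largest change, of which a selection is printed, and the 5 genes most like Dusp6. The members, lists and rule were chosen with earlier results of these data known. Alternatives were DESeq2 1.42.0, RLE factors, no count filter, at least 10 counts in every library, only the groups compared, the replicate block and leaving out each library. Some items of the design are not reported here.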

Additional observations from a re-analysis of the deposited data

Results flagged for a closer look

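In the fit over the H358 and H1651 libraries, the trametinib change of 6 members differed between the 2 lines, where 9.43% of all genes were called higher and 9.86% lower. The difference, H358 minus H1651 on the log2 scale, was -4.56 for DUSP6 (adjusted p 0.000279), -3.48 for DUSP5 (0.00200), -1.74 for DUSP9 (0.0138), 2.24 for DUSP1 (0.0160), 1.29 for DUSP10 (0.00818) and 0.65 for DUSP16 (0.0293), by edgeR. With 1 library left out the count ran from 3 to 7, and DUSP16 was called only without H358 trametinib replicate 1. Both lines received the same dose for the same time.

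Some members, 3 of these 6 among them, had both libraries of one culture above their vehicle and both libraries of another below it, a difference that was not tested, between cultures, species and doses that differ. With trametinib, Dusp7 had a log2 difference of 0.99 in 1027B, -0.84 in 3311 and -0.83 in H358. Dusp10 had 0.47 in 1027B, -0.59 in 3311 and 1.13 in H358. Dusp9 had 1.52 in 1027B and 1.26 in 3311 against -1.83 in H358, and Dusp16 had 0.43 in 1027B and -0.35 in H1651, neither called, although the replicate block called the first (adjusted p 0.0125).

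With MRTX1133, Dusp8 had 1.06 in 1027B at 20 nM and -0.43 in 3154 after ethanol at 3 nM, neither called, although the replicate block called the first (1.02, adjusted p 0.0107). On Hnf4a deletion in 3154, Dusp9 had -1.52 at 2 weeks and 0.17 in the 48-hour vehicle libraries, and Dusp8 had 0.88 and -0.42. Of these 4 values only the fall of Dusp9 at 2 weeks was called. No group held enough libraries for a check of single libraries that stand apart.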

How the results depend on the processing

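The alternatives gave 1589 values for the members, since some applied to part of the data: the fit on only the groups compared was made for 1027B and the 48-hour 3154 table, and stricter count filters left members out. Of these 1377 kept their direction and side of the threshold, 81 lost a call, 78 gained one and 53 changed sign. All but 1 of the sign changes came with a library left out, and the other was Dusp2 for MRTX1133 after ethanol, at 0.0466 with the replicate block against -0.02. No scaling moved the median of all genes by over 0.1 on the log2 scale. The counts of called members that moved by over 1.5 times were these, and the cause was not tested. With DESeq2 they were 4 for MRTX1133 against trametinib in 1027B, 2 for trametinib in H1651, 1 for MRTX1133 in 3154 after ethanol and 2 after 4OHT. Without a count filter H1651 had 1, and with at least 10 counts in every library the doxycycline comparison had 0 and MRTX1133 after 4OHT had 1. Fitted on only the groups compared, MRTX1133 after 4OHT had 7. With the replicate block, MRTX1133 in 1027B had 7 and MRTX1133 against trametinib 4, and this pairing changed no other call there than those given with the results. In tables whose libraries share only a number the block gave 5 for Hnf4a deletion at 2 weeks, 4 at 48 hours in vehicle, 4 for doxycycline, 5 for trametinib in H1651 and 10 for the difference between the human lines. Of all genes, the block called 31.5%, 31.7%, 17.6%, 10.3% and 40% in these comparisons, in the order listed. The fits without it called 9.81%, 31%, 1.42%, 0% and 19.3%. The deviations of same-numbered libraries correlated at 0.126 to 0.623 in the tables of 2 groups, which with 1 pair of groups each settles no pairing. With 1 library left out, the spread of its group is taken to be that of the others. The members called then ran from 6 to 7 for trametinib in 3311 (reported count 9), 5 to 6 in 1027B (7), 8 to 9 in H358 (9), 0 to 3 in H1651 (0) and 3 to 7 for the difference between the human lines (6). They ran from 0 to 3 for MRTX1133 in 1027B (4), 0 to 2 in 3154 after ethanol (0) and 0 to 2 after 4OHT (0). For Hnf4a deletion they ran from 1 to 5 at 2 weeks (2), 1 to 5 at 48 hours in vehicle (2) and 1 to 6 with MRTX1133 (5), and for doxycycline from 0 to 1 (1). The log2 values that changed sign, none of them called in the results above, ran over these ranges. For Hnf4a deletion at 2 weeks, Dusp2 (-0.40 to 1.01), Dusp4 (-0.28 to 0.19), Dusp5 (-0.81 to 0.24), Dusp6 (-0.64 to 0.0630) and Dusp16 (-0.33 to 0.13). For doxycycline in H1651, DUSP1 (-1.06 to 0.0675), DUSP2 (-0.16 to 0.62), DUSP5 (-0.17 to 0.31), DUSP8 (-0.12 to 0.19), DUSP10 (-0.43 to 0.26) and DUSP16 (-0.00213 to 0.0508). For MRTX1133 against trametinib in 1027B, Dusp1 (-0.31 to 0.16) and Dusp9 (-0.22 to 0.0213). For trametinib in H1651, DUSP1 (-0.40 to 0.27), DUSP2 (-0.96 to 0.67), DUSP7 (-0.26 to 0.16), DUSP9 (-0.33 to 0.17) and DUSP10 (-0.31 to 0.0219). For MRTX1133 in 3154 after ethanol, Dusp2 (-0.86 to 2.23), Dusp6 (-0.38 to 0.27), Dusp10 (-0.22 to 0.17) and Dusp16 (-0.26 to 0.28). For MRTX1133 in 3154 after 4OHT, Dusp1 (-0.0228 to 0.0497) and Dusp2 (-0.12 to 0.23). For Hnf4a deletion at 48 hours in vehicle, Dusp5 (-0.49 to 0.16), Dusp10 (-0.34 to 0.0534) and Dusp16 (-0.32 to 0.23). For Hnf4a deletion at 48 hours with MRTX1133, Dusp4 (-0.37 to 0.22) and Dusp6 (-0.0250 to 0.49). For the difference between the MRTX1133 changes in 3154, Dusp2 (-2.17 to 0.92), Dusp5 (-0.57 to 0.10) and Dusp16 (-0.0658 to 0.48). With at most 12 reads in any 1027B library, Dusp2 was too low to be tested there.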
